A study of Mus musculus with 4 samples.

Results

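The genes described here are the Hox cluster genes of mouse fracture callus, the 39 genes of the 32285 in the count tables whose symbol is *Hoxa*, *Hoxb*, *Hoxc* or *Hoxd* followed by a number. They were picked by symbol alone, though the choice was made with earlier results of these data known. In the mouse build mm10 (GRCm38) the 11 *Hoxa* members lay at chr6:52155590-52260880, the 10 *Hoxb* members at chr11:96194316-96368256, the 9 *Hoxc* members at chr15:102921103-103036852 and the 9 *Hoxd* members at chr2:74668310-74765142. The level of each member was followed across mesenchymal, muscle, endothelial and immune cells and across 4 libraries.

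Hox genes encode homeodomain transcription factors that give cells an address along the head-to-tail axis of the embryo and along the length of the limb. Within each cluster the genes stand in the order in which they act, from the 3′ members of low paralog number, used toward the head, to the 5′ members of high number, used toward the tail and in the far limb. Paralogs are the members of the same number in different clusters, and they overlap in function. Connective tissue cells of the adult keep much of the pattern set in the embryo, so that a fibroblast can be assigned to a body site from its Hox genes, and *Hoxa11* and its paralogs pattern the zeugopod, the limb segment that holds the tibia.

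The cells came from calluses of fractured tibiae of male wild-type C57BL/6J mice, 3 months old at fracture, taken at 4 or 7 days post fracture (dpf). RA mice received arthritogenic K/BxN serum, which transfers a systemic inflammatory arthritis, and control mice received vehicle. Each of the 4 conditions, control_4d, control_7d, RA_4d and RA_7d, was 1 scRNA-seq library made from 1 pool of calluses, 4 per pool by the labels (the study's methods give a lower number for each library), scraped from the periosteal surface and digested with collagenase. Values are given in that order throughout, in CPM, the UMIs of a gene scaled to the same fixed total of UMIs for each group of cells, where a UMI is 1 counted mRNA molecule. With 1 library per condition and time, condition and library cannot be told apart within a time and no test was made there. Over both times RA and control had 2 libraries each, which allowed a test with 1 residual degree of freedom. Each library held all cell types, so cell types were compared over 4 libraries.

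After the filter of the study, 25479 of 34038 barcodes were kept, 4110 to 8223 per library, with 83405494 to 156567619 UMIs per library and a median of 16094 to 17632 UMIs per cell. Any pair of libraries shared 5 to 15 barcodes. Clusters were assigned to lineages by fixed marker lists that hold no Hox gene, and no Hox gene was among the 2000 variable genes used for clustering. This gave 9093 mesenchymal, 944 muscle, 3361 endothelial and 10805 immune cells, with 831 mural cells (pericytes and smooth muscle), 301 Schwann cells and 144 cells left unnamed. All 6 markers of each lineage's own list were present in every library in that lineage, from 28.4 CPM for *Twist2* in mesenchymal cells upward. *Prrx1* and *Twist2* of the mesenchymal list were also high in mural cells, at 515 and 28.0 CPM. Because reads came from the 3′ end of transcripts the counts carry no length term. Of the members 11 overlap another member on the same strand and 14 overlap a gene on the other strand. The same-strand overlaps are of *Hoxa3* with *Hoxa4*, *Hoxa5* and *Hoxa6*, of *Hoxc5* with its neighbours, and of *Hoxd3* with *Hoxd4*. Counts of these members may be affected by the overlap, which was not tested.

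In the same callus endothelial cells carried a Hox pattern unlike that of mesenchymal and muscle cells, and immune cells carried little Hox mRNA. Mesenchymal and muscle cells shared much of their pattern, and muscle had little *Hoxb* and *Hoxd*. The summed level of the 39 members was 366 CPM in mesenchymal cells (323 to 406 over the libraries), 473 in muscle (413 to 572), 484 in endothelial cells (423 to 539.8) and 22.1 in immune cells (17.4 to 28.1). In mesenchymal cells 49.9% of Hox UMIs came from *Hoxc* and 39.2% from *Hoxa*, against 3.98% from *Hoxb* and 6.93% from *Hoxd*. Muscle cells drew 62.9% from *Hoxc* and 36.6% from *Hoxa*, with 0.409% from *Hoxb* and 0.132% from *Hoxd*. Endothelial cells drew 58.4% from *Hoxb*, 23.5% from *Hoxa*, 17.5% from *Hoxd* and 0.580% from *Hoxc*. Over the libraries the *Hoxc* share of mesenchymal cells ran from 47.9% to 56.2%, and the *Hoxb* share of endothelial cells from 56.2% to 61.5%. The spread was wider in immune cells, where the *Hoxb* share ran from 54.8% to 72.4% and the *Hoxc* share from 5.66% to 14.4%.

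**Figure D1:**
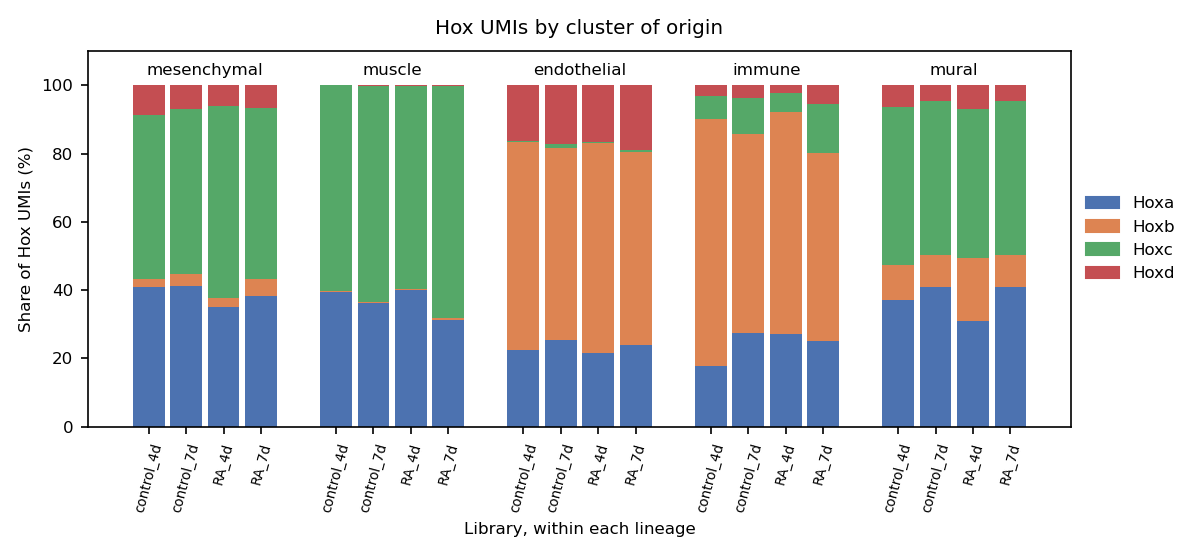
Share of Hox UMIs (percent, y axis) that came from the *Hoxa*, *Hoxb*, *Hoxc* and *Hoxd* clusters in each library (x axis), grouped by lineage, as stacked bars that each sum to 100% of the Hox UMIs of that library and lineage. Mesenchymal and muscle bars are mostly *Hoxa* and *Hoxc* in all 4 libraries and endothelial bars mostly *Hoxb*, with 0.580% of pooled endothelial Hox UMIs from *Hoxc*.

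By position within the clusters, paralog groups 9 to 11 held 61.6% of the Hox UMIs of mesenchymal cells and 59.0% of those of muscle, against 13.1% in endothelial and 17.3% in immune cells. Groups 5 to 8 held 55.4% in endothelial cells, and groups 1 to 4 held 64.6% in immune cells. Groups 12 and 13, which act in the hand and foot and at the end of the tail, held 0.194% in mesenchymal cells and 0 of 28452 Hox UMIs in endothelial cells, which allows a share of up to 0.0105%. Set side by side as profiles over the 39 members, any pair of libraries shared 89.9% to 95.1% of the profile within mesenchymal cells, 74.5% to 83.0% between mesenchymal and muscle cells, and 18.8% to 23.3% between mesenchymal and endothelial cells. The share is the sum over members of the smaller of the 2 proportions, so 100% would be identical proportions.

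**Figure D2:**
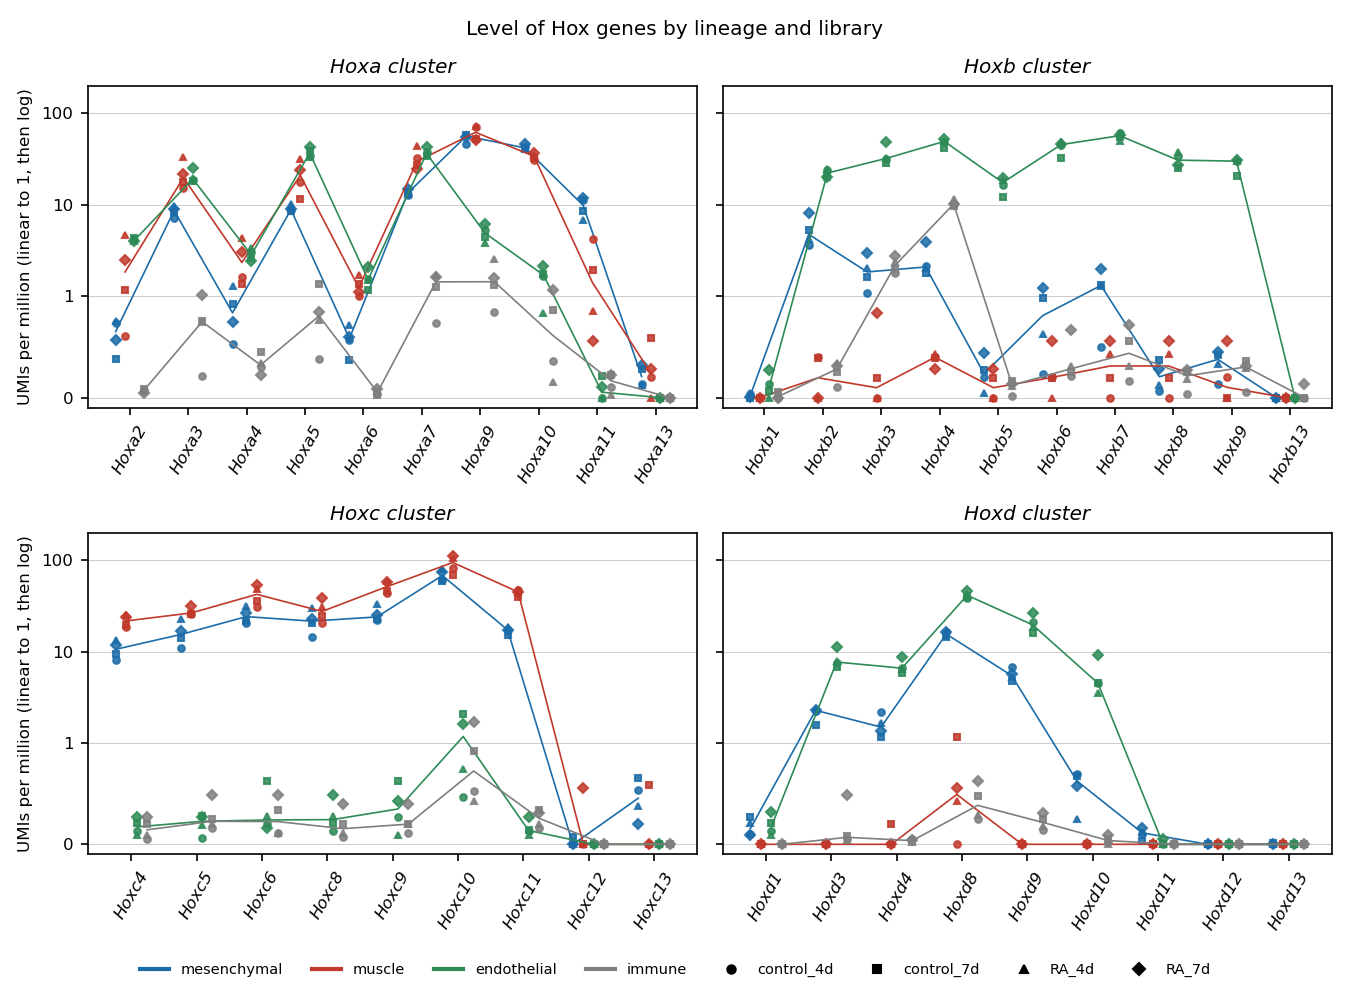
Level of Hox genes (CPM, linear to 1 and then on a log axis) in mesenchymal, muscle, endothelial and immune cells, with 1 point per library, 1 symbol per condition and lines through the medians, ordered within each cluster from the lowest to the highest paralog number. From *Hoxc4* to *Hoxc11* the mesenchymal and muscle points stand above the endothelial and immune points, from *Hoxb2* to *Hoxb9* the endothelial points stand above all others, and the endothelial line crosses below the mesenchymal one between *Hoxa7* and *Hoxa9*.

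Genes of the *Hoxc* cluster made up the largest share of the mesenchymal pattern. *Hoxc10*, which takes part in patterning the hindlimb and lumbar region, was at 61.0, 59.1, 79.1 and 74.9 CPM in control_4d, control_7d, RA_4d and RA_7d in mesenchymal cells. It was at 82.7, 68.6, 106 and 112 CPM in muscle and at 0.469 to 2.08 CPM in endothelial cells. The mesenchymal and muscle libraries overlapped, and both lineages stood above every endothelial library. *Hoxc6*, at 20.5, 21.7, 31.9 and 26.5 CPM, *Hoxc8*, at 14.3, 20.5, 29.7 and 22.5 CPM, and *Hoxc9*, at 22.0, 23.0, 33.1 and 24.9 CPM in mesenchymal cells, belong to the part of the cluster used in the trunk. All 3 were at 0.289 to 0.374 CPM in endothelial cells. The anterior *Hoxc4* was at 8.04, 9.38, 13.3 and 11.8 CPM and its neighbour *Hoxc5* at 11.1, 14.2, 22.5 and 16.6 CPM in mesenchymal cells. *Hoxc11*, a hindlimb gene, was at 17.2, 15.3, 18.5 and 17.3 CPM there.

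Within *Hoxa* the mesenchymal UMIs came mostly from the posterior *Hoxa9* and *Hoxa10*. *Hoxa3* was at 7.11, 8.26, 9.73 and 9.06 CPM, *Hoxa5* at 8.83, 8.50, 10.3 and 8.90 CPM and *Hoxa7* at 12.8, 14.0, 13 and 14.8 CPM. *Hoxa9* was at 46.8, 57.5, 58.3 and 55.6 CPM and *Hoxa10*, which with its paralogs patterns the limb segment nearest the body, at 42.7, 40.9, 41.4 and 46.3 CPM. The zeugopod gene *Hoxa11* was at 11.3, 8.46, 6.84 and 12 CPM, lowest in RA_4d and highest in RA_7d. *Hoxa13*, used in the hand and foot, was at 0.266 CPM over the 4 libraries, and no UMI of it was found in endothelial or immune cells. Of the *Hoxd* genes only *Hoxd8*, at 16.4, 14.7, 14.3 and 16.3 CPM, passed 10 CPM in mesenchymal cells, and *Hoxd9* stood at 6.74, 4.78, 5.29 and 5.63 CPM. *Hoxd11*, the paralog of *Hoxa11*, was at 0.106 CPM. The *Hoxb* genes were low in mesenchymal cells, with *Hoxb2* at 3.65, 5.26, 4.24 and 8.04 CPM and *Hoxb3* to *Hoxb9* at 0.270 to 2.79 CPM pooled over the libraries.

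Muscle cells shared the *Hoxa* and *Hoxc* pattern of mesenchymal cells but had almost no *Hoxb* or *Hoxd* mRNA. *Hoxa9* was at 71.4, 53.2, 73.6 and 51.1 CPM and *Hoxa10* at 31.3, 32.8, 35.1 and 36.9 CPM in muscle, and the muscle and mesenchymal ranges of *Hoxa9* overlapped. *Hoxc11* was at 47.3, 39.5, 44.5 and 45.3 CPM in muscle, above every mesenchymal library, and *Hoxc9* at 44.1, 45.9, 59.0 and 57.2 CPM. The anterior *Hoxa3* reached 15.2, 18, 33.8 and 21.7 CPM, *Hoxa5* 17.8, 11.5, 31.7 and 24.2 CPM and *Hoxa7* 32.9, 27.0, 43.6 and 24.4 CPM, each above all mesenchymal libraries. *Hoxc4* (18.6 to 24.8 CPM), *Hoxc5* (25.7 to 31.4), *Hoxc6* (30.9 to 53.3) and *Hoxc8* (20.4 to 38.3) were likewise above every endothelial and immune library. *Hoxd8* was at 0, 1.17, 0.428 and 0.555 CPM in muscle against 14.3 CPM or more in every mesenchymal library. *Hoxd3*, *Hoxd9* and *Hoxd10* had 0 of 16003159 UMIs in muscle, so that, against a floor of 3 UMIs over the 4 libraries, they were at least 10.9-fold, 29.0-fold and 3.15-fold higher in mesenchymal cells.

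Over all genes, 17522 were tested between lineages by edgeR's quasi-likelihood test on UMI sums per library and lineage with the library as a block, and 29.2% of them were higher and 26.7% lower in mesenchymal than in muscle cells at an adjusted p (Benjamini-Hochberg) under 0.05. Of the 39 members 30 passed the filter on low counts and were tested. Of these 10 (33.3%) were higher in mesenchymal cells, 11 (36.7%) were lower and 9 did not pass, with a median log2 difference of 0.25 against 0.05 for all genes. All 5 tested *Hoxd* members and *Hoxb2*, *Hoxb3*, *Hoxb4*, *Hoxb7* and *Hoxa11* were higher in mesenchymal cells. *Hoxd8* differed by 4.87 ± 0.37 (SE), adjusted p = 2.6e-07, on the log2 scale, *Hoxb2* by 4.44 ± 0.58 (SE), adjusted p = 2.6e-05, and *Hoxa11* by 2.38 ± 0.44 (SE), adjusted p = 4.6e-04. The members lower in mesenchymal cells were *Hoxa2* to *Hoxa7*, 6 in all, and *Hoxc4*, *Hoxc5*, *Hoxc6*, *Hoxc9* and *Hoxc11*. *Hoxc11* was lower by 1.28 ± 0.14 (SE), adjusted p = 4.5e-06 and *Hoxa3* by 1.23 ± 0.23 (SE), adjusted p = 4.6e-04. *Hoxa9* (-0.10 ± 0.21 (SE), adjusted p = 0.71), *Hoxa10* (0.44 ± 0.25 (SE), adjusted p = 0.15) and *Hoxc10* (-0.32 ± 0.25 (SE), adjusted p = 0.29) did not pass. The count of lower members depended on the cells and libraries used. It was 3 (*Hoxa7*, *Hoxc9* and *Hoxc11*) when cells were chosen by a gate on 6 markers each, which kept 178 muscle cells. Without RA_7d 7 remained, when *Hoxa2*, *Hoxa4*, *Hoxa5* and *Hoxc6* no longer passed. The share of all genes called lower also fell, from 26.7% to 15.5% under the gate and to 19.0% without RA_7d.

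Endothelial cells reversed the pattern at a sharp point in the *Hoxa* cluster. *Hoxa7* was at 37.6, 34.3, 35.3 and 43.1 CPM in endothelial cells, above every mesenchymal library, and *Hoxa9*, the next gene of the cluster, at 5.37, 4.45, 3.81 and 6.21 CPM, below every mesenchymal library. *Hoxa5* was at 34.7, 39.3, 33.1 and 43.1 CPM and *Hoxa3* at 18.8, 18.4, 19.7 and 25.4 CPM. *Hoxa10* was at 0.836 to 2.14 CPM and *Hoxa11* at 0 to 0.208 CPM. Anterior *Hoxa* genes were thus the higher ones in endothelium and posterior *Hoxa* genes the higher ones in mesenchyme.

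Among the main lineages, which leave out mural and Schwann cells, the *Hoxb* genes from *Hoxb5* to *Hoxb9* were found mainly in endothelial cells. *Hoxb7*, a trunk gene, was at 60.7, 55.9, 50.6 and 58.4 CPM, *Hoxb6* at 44.8, 32.2, 48.9 and 46.5 CPM and *Hoxb8* at 34.3, 25.6, 38.2 and 27.4 CPM. *Hoxb9* was at 30.2, 20.7, 30.0 and 31.1 CPM, and *Hoxb5*, which acts in the formation of endothelial cells from their precursors, at 16.4, 12.3, 18.6 and 19.5 CPM. For these 5 members the highest level in any library was 1.99 CPM in mesenchymal, 0.555 CPM in muscle and 0.713 CPM in immune cells. *Hoxb2* was at 24.3, 20.2, 24.4 and 20.2 CPM, *Hoxb3*, known for a part in vessel formation, at 31.7, 28.8, 32.6 and 48.7 CPM and *Hoxb4* at 49.2, 41.9, 49.9 and 52.9 CPM. *Hoxb3* was highest in RA_7d, where it stood above the other 3 libraries. *Hoxd8* was at 39, 39.7, 42.8 and 45.8 CPM and *Hoxd9* at 20.9, 16, 18.4 and 26.4 CPM, both above every mesenchymal library.

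In the same edgeR test 29.6% of all genes were higher and 35.2% lower in mesenchymal than in endothelial cells. Of the 30 members tested 10 (33.3%) were higher and 20 (66.7%) lower, and their median log2 difference was -1.56 against -0.09 for all genes. The 10 were all 7 tested *Hoxc* members with *Hoxa9*, *Hoxa10* and *Hoxa11*, and the 20 included all 8 tested *Hoxb* members, all 5 tested *Hoxd* members and *Hoxa2* to *Hoxa7*. *Hoxa9* was higher in mesenchymal cells by 3.50 ± 0.24 (SE), adjusted p = 4.8e-08, and *Hoxa7* lower by 1.39 ± 0.18 (SE), adjusted p = 2.1e-05. *Hoxc10* was higher by 5.87 ± 0.34 (SE), adjusted p = 1.0e-08. *Hoxb8* was lower by 6.88 ± 0.38 (SE), adjusted p = 6.2e-09 and *Hoxb7* by 5.45 ± 0.29 (SE), adjusted p = 4.6e-09. Without any 1 library 10 to 11 members were higher and 19 to 20 lower.

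The sequences at the starts of 4 members are given because they stand on either side of these steps. *Hoxa7* and *Hoxa9* are adjacent genes with opposite lineage patterns. Among the main lineages *Hoxb8* was found mainly in endothelial cells, and *Hoxb4* was the only member at 10 CPM in immune cells. Each runs from 250 bases before to 50 after the annotated start (RefSeq, GRCm38.p6). They are *Hoxa7* at chr6:52218524-52218823 and *Hoxa9* at chr6:52227321-52227620, both on the minus strand, and *Hoxb8* at chr11:96281655-96281954 and *Hoxb4* at chr11:96318017-96318316, both on the plus strand. The gene spans used for the cluster positions put the 5′ ends of *Hoxa7* and *Hoxa9* further upstream, at chr6:52221854 and chr6:52231089. Their windows thus lie within those spans, and other starts of these members were not examined. Capitals mark matches on either strand to TTTATG, a core bound by posterior Hox and Cdx proteins, TGATNNAT, bound by Pbx with a Hox protein, or TGACAG, bound by Meis and Pknox proteins.
Hoxa7: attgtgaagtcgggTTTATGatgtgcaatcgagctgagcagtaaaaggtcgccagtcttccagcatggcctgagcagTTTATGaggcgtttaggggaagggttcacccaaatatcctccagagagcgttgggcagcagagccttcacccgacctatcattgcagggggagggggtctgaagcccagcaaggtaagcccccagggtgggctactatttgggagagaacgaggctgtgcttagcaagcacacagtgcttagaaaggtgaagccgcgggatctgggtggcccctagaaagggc
Hoxa9: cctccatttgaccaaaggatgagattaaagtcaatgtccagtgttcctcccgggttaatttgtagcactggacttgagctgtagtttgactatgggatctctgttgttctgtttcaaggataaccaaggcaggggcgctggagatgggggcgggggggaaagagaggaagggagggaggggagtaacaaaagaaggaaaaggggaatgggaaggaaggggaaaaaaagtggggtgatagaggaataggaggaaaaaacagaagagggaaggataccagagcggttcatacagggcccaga
Hoxb8: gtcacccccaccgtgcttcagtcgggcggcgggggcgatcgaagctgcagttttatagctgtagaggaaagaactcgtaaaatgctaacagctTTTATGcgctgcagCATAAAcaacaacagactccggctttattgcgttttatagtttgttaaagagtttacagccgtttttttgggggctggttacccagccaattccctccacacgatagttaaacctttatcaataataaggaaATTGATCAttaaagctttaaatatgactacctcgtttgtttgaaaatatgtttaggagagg
Hoxb4: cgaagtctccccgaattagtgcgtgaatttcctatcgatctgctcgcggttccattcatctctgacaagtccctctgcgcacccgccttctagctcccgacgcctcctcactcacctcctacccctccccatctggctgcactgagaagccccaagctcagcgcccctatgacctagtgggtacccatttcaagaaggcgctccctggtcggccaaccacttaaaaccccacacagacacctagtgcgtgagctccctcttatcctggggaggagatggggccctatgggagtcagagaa
*Hoxa7* and *Hoxb8* each held 2 matches to TTTATG and *Hoxb8* 1 to TGATNNAT, and *Hoxa9* and *Hoxb4* held none of the 3. Among 32851 promoters of the same length TTTATG occurred in 11.9%, TGATNNAT in 8.85% and TGACAG in 19.2%, and among the 24 promoter entries of the 22 members with an entry in 20.8%, 16.7% and 8.33%. The matches are letters in a window and say nothing of binding.

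Immune cells held 1 member at 10 CPM, *Hoxb4*, a gene of blood stem cells. It was at 10.3, 9.77, 11.5 and 10.2 CPM in immune cells, above every mesenchymal library (1.81 to 3.94 CPM) and below every endothelial library. *Hoxb3*, its neighbour, was at 1.78, 1.99, 2.38 and 2.72 CPM. *Hoxa9*, at 0.844, 1.32, 2.54 and 1.56 CPM, and *Hoxa7*, at 0.736, 1.26, 1.68 and 1.61 CPM, were the other members whose pooled level passed 1 CPM.

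RNA released from other cells can give UMIs in cells that do not make a transcript, so the immune levels were set against those of transcripts made elsewhere. 6 abundant mesenchymal mRNAs (*Col1a1*, *Col1a2*, *Col3a1*, *Dcn*, *Sparc* and *Postn*) stood in immune cells at 0.600% to 1.08% of their mesenchymal level, and the 7 *Hoxc* members at 0.734% to 1.53%, median 1.10%. 6 endothelial mRNAs (*Cdh5*, *Pecam1*, *Egfl7*, *Cldn5*, *Kdr* and *Tie1*, chosen after their values were seen) stood in immune cells at 0.657% to 2.93% of their endothelial level. *Hoxb4* stood at 21.5% of its endothelial level and *Hoxb3* at 5.82%, whereas *Hoxb5* to *Hoxb9* stood at 0.515% to 0.810%. In muscle the collagen-type list stood at 1.59% to 11% of the mesenchymal level, with *Hoxd8* at 3.61%, and in endothelial cells the *Hoxc* members stood at 1.02% to 1.87%, median 1.34%. On the same list 5 mRNAs stood at 0.757% to 1.32% there, and *Sparc*, which endothelial cells also make, at 26.4%. *Hoxb4* and *Hoxb3* in immune cells thus stood above the range of the endothelial list, the *Hoxc* range in immune cells overlapped that of the mesenchymal list and reached above it, and *Hoxb5* to *Hoxb9* did not pass the endothelial list. In mesenchymal cells the 6 endothelial mRNAs stood at 0.358% to 2.07% of their endothelial level, and the 8 *Hoxb* members from *Hoxb2* to *Hoxb9* at 0.881% to 27.9%, median 2.44%. The part of released RNA in these low levels was not tested.

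Against immune cells 37.3% of all genes were higher and 39.8% lower in mesenchymal cells in the edgeR test. Of the 30 members tested 25 (83.3%) were higher, 2 (6.67%) lower and 3 (*Hoxb5*, *Hoxb8* and *Hoxb9*) did not pass, with a median log2 difference of 3.74 against -0.03 for all genes. *Hoxb4* was lower in mesenchymal cells by 2.29 ± 0.17 (SE), adjusted p = 3.8e-08. *Hoxb3* was lower by 0.44 ± 0.19 (SE), adjusted p = 0.045, and that call was lost under 11 of 12 other settings, with adjusted p of 0.046 to 0.44 over all of them. With the marker gate the edgeR test called *Hoxb5*, *Hoxb8* and *Hoxb9* higher in mesenchymal cells, by 2.95, 2.46 and 2.52 (adjusted p = 0.0014, 0.0049 and 7.8e-04). Over the other settings their highest adjusted p was 0.22, 0.78 and 0.76. *Hoxa10* was higher by 6.06 ± 0.32 (SE), adjusted p = 1.6e-09 and *Hoxa7* by 3.22 ± 0.22 (SE), adjusted p = 1.6e-08.

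The same order appeared in single cells. When each cell was thinned to 4000 UMIs, 72.1% of mesenchymal, 82.0% of muscle, 84.0% of endothelial and 7.89% of immune cells held a UMI of any member. Without thinning the shares were 98.4%, 98.3%, 99% and 21.8%, at median depths of 25451, 13588, 15733 and 12628 UMIs. *Hoxb4* was found in 4.15% of thinned immune cells (12.8% without thinning), against 0.106% of muscle cells (0.636%), where its level was lowest. *Hoxc10* was found in 21.4% of thinned mesenchymal cells and 0.287% of immune cells. Any *Hoxc* member was found in 0.803% of thinned endothelial cells and any *Hoxd* member in 0.212% of muscle cells. A thinned mesenchymal cell held UMIs of a median of 1 member and a muscle cell of 2, so the pattern of a lineage was read from sums over cells.

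The 16 members under 10 CPM in all 4 main lineages fell into 2 sets. 7 lay between 1 and 10 CPM where they were highest, which for all 7 was endothelial cells, among them *Hoxd3* at 8.58, *Hoxd4* at 7.04, *Hoxd10* at 5.8, *Hoxa2* at 4.13, *Hoxa4* at 2.79 and *Hoxa6* at 1.62 CPM. The other 9 (*Hoxa13*, *Hoxb1*, *Hoxb13*, *Hoxc12*, *Hoxc13*, *Hoxd1*, *Hoxd11*, *Hoxd12* and *Hoxd13*) did not pass 0.414 CPM in any of these lineages, and these are also the 9 that were too low to be tested. *Hoxd12* had no UMI in any barcode, *Hoxd13* had 3 and *Hoxb13* had 3. The most anterior *Hoxb1* and *Hoxd1* and all members of groups 12 and 13 were thus at or near 0 in the main lineages. *Hoxc4*, the most anterior *Hoxc* member, was not, at 10.6 CPM in mesenchymal cells.

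Within endothelium *Hoxd8*, *Hoxd9* and *Hoxd10* were at higher levels in lymphatic than in blood vessel cells. Cluster 18, of 308 cells, was called lymphatic endothelial-like from the average over *Prox1*, *Lyve1*, *Pdpn* and *Flt4*. It held *Hoxd10* at 51.8 CPM (95% interval 45.3 to 58.9), against 1.66 and 2.72 CPM in clusters 5 and 7, which were blood endothelial-like. By library *Hoxd10* was at 51.1, 39.1, 34.1 and 67.3 CPM in cluster 18. *Hoxd9* was at 63.7 CPM there against 15 and 21.9, and *Hoxd8*, which acts in lymphatic vessel upkeep, at 63.5 CPM against 42.1 and 37.1. *Hoxd3* was at 11.7 CPM against 6.97 and 10.7, and *Hoxd4* at 7.88 against 6.19 and 8.38. *Hoxb9* went the other way, at 0.450 CPM (95% interval 0.0545 to 1.63) in lymphatic-like cells and 24.7 and 40.5 CPM in the blood endothelial-like clusters, and *Hoxb8* was at 9.23 CPM against 31.9 and 33.4. *Hoxb2* was at 2.25 CPM against 22.7 and 25.4. *Hoxa7* was alike, at 40.3, 35.8 and 41.8 CPM. *Hoxd* gave 45.8% of Hox UMIs in cluster 18, and these differences between clusters are a description with no test. Of cluster 18 the 2 libraries at 4 dpf held 31 and 34 cells.

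**Figure D3:**
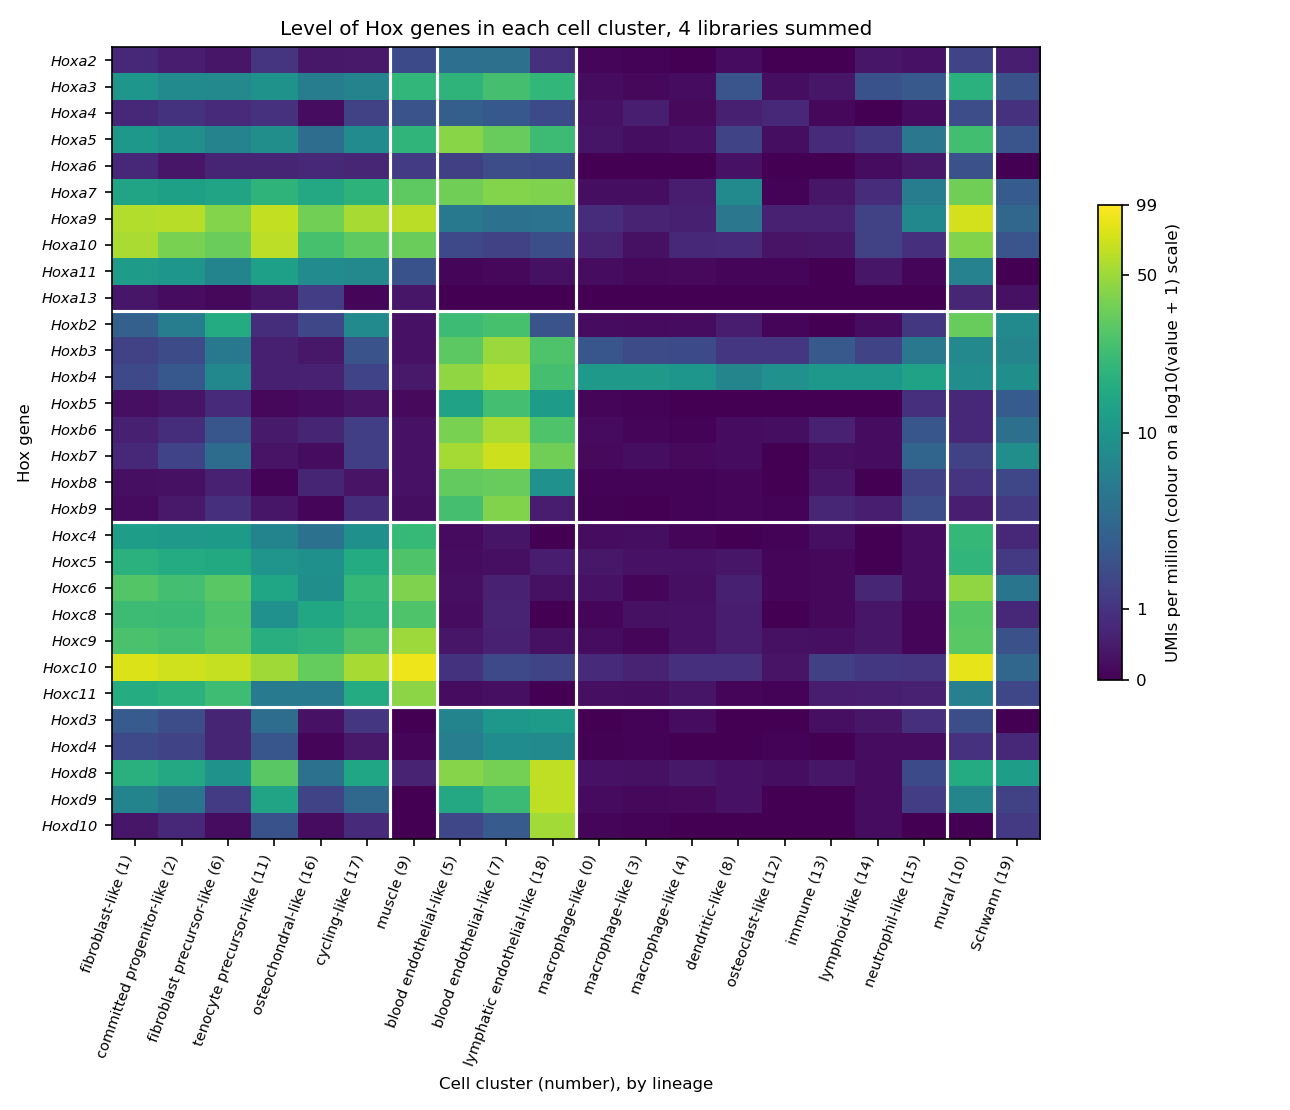
Level of members that reached 1 CPM in at least 1 cluster (y axis) in each cell cluster (x axis, with the cluster number and the name its markers gave it), as CPM over the 4 libraries with colour on a log10(value + 1) scale. The lymphatic endothelial-like cluster stands out by *Hoxd8* and *Hoxd9* at 63.5 and 63.7 CPM, and the immune clusters all hold *Hoxb4*, at 7.07 to 13.1 CPM.

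Among the immune clusters *Hoxb4* ran from 7.07 CPM in the dendritic-like cluster 8 to 13.1 CPM in the neutrophil-like cluster 15. It was at 9.26 CPM in the osteoclast-like cluster 12 and 10.7 CPM in the lymphoid-like cluster 14. *Hoxa9* and *Hoxa7* varied more. *Hoxa9*, a gene of blood progenitors that is activated in acute myeloid leukaemia, was at 7.60 CPM (95% interval 6.10 to 9.37) in the neutrophil-like cluster and 5.18 CPM (95% interval 3.98 to 6.63) in the dendritic-like cluster, against 0.512 to 0.809 CPM in the macrophage and monocyte-like clusters 0, 3 and 4. *Hoxa7* was at 7.89 CPM in the dendritic-like cluster and 5.88 CPM in the neutrophil-like cluster, and *Hoxa5* at 5.18 CPM in the latter. Leading genes of the neutrophil-like cluster included *Elane* and *Prtn3*, which mark immature granulocytes. *Meis1*, a cofactor of Hox proteins, was at 22.4 CPM in the dendritic-like cluster and 3.00 CPM in cluster 0.

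Mural and Schwann cells were in no test, and their levels are given as description. Mural cells held *Hoxc10* at 67.3, 79.0, 79.7 and 92.5 CPM and *Hoxa9* at 46.2, 67.1, 53.6 and 87.6 CPM, near the mesenchymal levels, together with *Hoxb2* at 30.8, 29.1, 59.4 and 31.1 CPM, near or above the endothelial level. *Hoxc11* was at 3.37, 7.36, 5.07 and 7.35 CPM in mural cells, below every mesenchymal library. The profile of mural cells shared 74.2% to 85.7% with mesenchymal and 29.9% to 34.3% with endothelial libraries. Schwann cells had 88.4 CPM of Hox mRNA, with *Hoxd8* at 12.3, *Hoxb4* at 8.98 and *Hoxb7* at 8.74 CPM pooled over 4232908 UMIs. With 20 to 185 Schwann cells per library their levels by library were loose, and *Hoxb4* ran from 3.92 to 15.9 CPM. The RA_4d library held 9 Hox UMIs in Schwann cells. Schwann profiles shared 23.4% to 69.6% between libraries and 29.1% to 67.3% with endothelial libraries, so a pattern of their own was not shown.

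The clusters within the mesenchyme shared the *Hoxa* and *Hoxc* pattern to unequal degrees. As pooled profiles, clusters 1 and 2 shared 94.3%, and clusters 6 and 11 shared 68.0%. Cluster 6 shared 81.3% with the muscle cells (cluster 9), more than with cluster 11. Some mesenchymal clusters thus differed from each other as much as from muscle. In the fibroblast-like cluster 1 and the committed mesenchymal progenitor-like cluster 2 *Hoxc10* was at 77.9 and 70.7 CPM and *Hoxa9* at 57.6 and 60.4 CPM. The tenocyte precursor-like cluster 11 held *Hoxd8* at 29.8 and *Hoxd9* at 13.7 CPM, against 17.7 and 6.94 in cluster 1, and had *Hoxc11* at 5.64 against 16.3 CPM and *Hoxc8* at 9.30 against 22.3 CPM. By library *Hoxd9* was at 17.2, 11.1, 22.0 and 12.3 CPM in cluster 11. The fibroblast precursor-like cluster 6 held *Hoxb2* at 16.1, *Hoxb4* at 7.55 and *Hoxb3* at 5.43 CPM, against 3.08, 1.78 and 1.48 in cluster 1, with *Hoxd9* at 1.22 CPM. The osteochondral-like cluster 16 was low in *Hoxc10* (32.8 CPM), *Hoxc11* (5.50 CPM) and *Hoxd8* (4.63 CPM), and its 394 cells included 1 from control_4d and 3 from RA_4d. No test was made between clusters.

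The comparison of RA with control, which asks how systemic inflammation alters the cells of the callus, was made in mesenchymal cells. At 4 dpf the *Hoxc* genes had higher levels in the RA library than in the control library. *Hoxc8* was at 29.7 CPM in RA_4d and 14.3 CPM in control_4d, a ratio of 2.07 (95% interval 1.83 to 2.34), and *Hoxc5* at 22.5 and 11.1 CPM, a ratio of 2.04 (95% interval 1.77 to 2.34). *Hoxc4* had a ratio of 1.66 (95% interval 1.40 to 1.97) and *Hoxc6* of 1.56 (95% interval 1.40 to 1.74). *Hoxc9* had a ratio of 1.51 (95% interval 1.36 to 1.67), which lay just under the 1.5-fold used once 1 CPM was added to each level. All 7 *Hoxc* members with enough UMIs had a ratio above 1, and for 6 of them the whole interval was above 1, as it was for 26.1% of all genes. *Hoxa11* was lower, at 6.84 CPM in RA_4d and 11.3 CPM in control_4d, a ratio of 0.606 (95% interval 0.499 to 0.732). The intervals cover counting error only and not the spread between mice. The rise at 4 dpf was not confined to mesenchymal cells, whose summed Hox level was 406 CPM in RA_4d and 323 in control_4d. That sum was also higher in RA_4d in muscle (572 and 447 CPM), immune (23.8 and 17.4) and mural cells (521 and 433). It was not higher in endothelial cells (477 and 479 CPM). The Schwann values, 35.3 CPM in RA_4d and 89.4 in control_4d, rest on only 9 and 45 Hox UMIs.

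Of 14252 genes that reached 50 UMIs in the 2 libraries combined, 4.20% were at least 1.5-fold higher and 2.61% at least 1.5-fold lower in RA_4d, on the scale of log2(CPM + 1). Of these genes 598 were higher and 372 lower, against 458 and 469 under TMM scaling, where 3 members were higher and 1 lower. Of the 20 members among them 4 (20%) were higher and 1 (5%) lower, and their median log2 ratio was 0.19 against 0.04 for all genes. *Hoxc4*, *Hoxc5*, *Hoxc6* and *Hoxc9* were higher in RA_4d in 5 of 5 mesenchymal clusters with at least 20 cells in both libraries. *Hoxc8* was higher in 4 of 5, and its ratio in the tenocyte precursor-like cluster was 0.711. *Hoxc10* was higher in 4 of 5, with ratios of 0.746 to 1.99, and *Hoxc11* in 3 of 5, with ratios of 0.625 to 1.57. The clusters come from the same 2 libraries and are not replicates. *Hoxa11* was lower in RA_4d in 5 of 5 clusters, with ratios of 0.357 to 0.928. Fibroblast precursor-like cells were 19.2, 10.9, 9.07 and 17.7% of mesenchymal cells in the 4 libraries. When each mesenchymal cluster was given equal weight 5 members were at least 1.5-fold higher and 1 lower in RA_4d, with a median log2 ratio of 0.34. Of 14252 genes 709 were then higher and 282 lower, with a median of 0.05. With a pseudocount of 10 CPM 2 of 20 members were at least 1.5-fold higher and 0 lower, against 122 and 138 of 14252 genes.

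At 7 dpf the *Hoxc* ratios were smaller, with a median log2 ratio of 0.19 over 8 members against 0.62 over 7 at 4 dpf, and 7 of the 8 had a whole interval above 1, as did 26.9% of all genes. The member past the fold was *Hoxb4*, a share of members below that of all genes. *Hoxb4* was at 3.94 CPM in RA_7d and 1.81 CPM in control_7d, a ratio of 2.18 (95% interval 1.80 to 2.65), and its neighbours *Hoxb3* and *Hoxb2* had ratios of 1.80 (95% interval 1.47 to 2.23) and 1.53 (95% interval 1.36 to 1.72). *Hoxb4* was higher in RA_7d in 4 of 4 mesenchymal clusters with enough UMIs, by 1.61-fold to 3.13-fold, *Hoxb3* in 4 of 4 and *Hoxb2* in 3 of 6, with ratios of 0.107 to 3.49. Fibroblast precursor-like cells, which are high in *Hoxb2*, *Hoxb3* and *Hoxb4*, were 10.9% of mesenchymal cells in control_7d and 17.7% in RA_7d. With equal weight of the clusters the log2 ratio of *Hoxb4*, with 1 CPM added to each level, was 0.56, just under 1.5-fold. The ratio of 2.18 had no CPM added, so these values are on different scales. The median log2 ratio over members was 0.07 with equal weight, against 0.17. Of 17336 genes 4.36% were at least 1.5-fold higher and 4.56% at least 1.5-fold lower, and of 32 members 1 (3.12%) was higher and 0 lower. The summed Hox level of mesenchymal cells was 390 CPM in RA_7d and 339 in control_7d. That sum was also higher in RA_7d in muscle (532 and 413 CPM), endothelial (540 and 423), immune (28.1 and 23.4) and mural cells (576 and 475). In Schwann cells it was lower (76.3 and 132 CPM). *Hoxc8* had a ratio of 1.10 (95% interval 1.03 to 1.17) and *Hoxc10* of 1.27 (95% interval 1.22 to 1.31). The *Hoxc* ratios were not uniform over the mesenchymal clusters. *Hoxc6*, *Hoxc10* and *Hoxc11* were higher in RA_7d in 4 of 6 clusters, and *Hoxc4*, *Hoxc5* and *Hoxc9* in 3 of 6. *Hoxc8* was higher in 2 of 6, with ratios of 0.385 to 1.41. *Hoxa11* was now higher in RA, with a ratio of 1.42 (95% interval 1.29 to 1.56), in 5 of 6 clusters. Its ratio was 6.12 in the osteochondral-like cluster, at 18.1 CPM in RA_7d and 2.96 CPM in control_7d, and 0.573 in the fibroblast precursor-like cluster. *Hoxc13* had 20 UMIs in RA_7d and 53 in control_7d, a ratio of 0.302 (95% interval 0.171 to 0.513). Under 3 other settings (TMM scaling, the marker gate or doublets left out) 2 members were at least 1.5-fold higher, and with a pseudocount of 10 CPM 0 were. Of all genes 882 of 17336, 817 of 16875 and 774 of 17140 were higher under these 3 settings, and 311 of 17336 with that pseudocount.

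**Figure D4:**
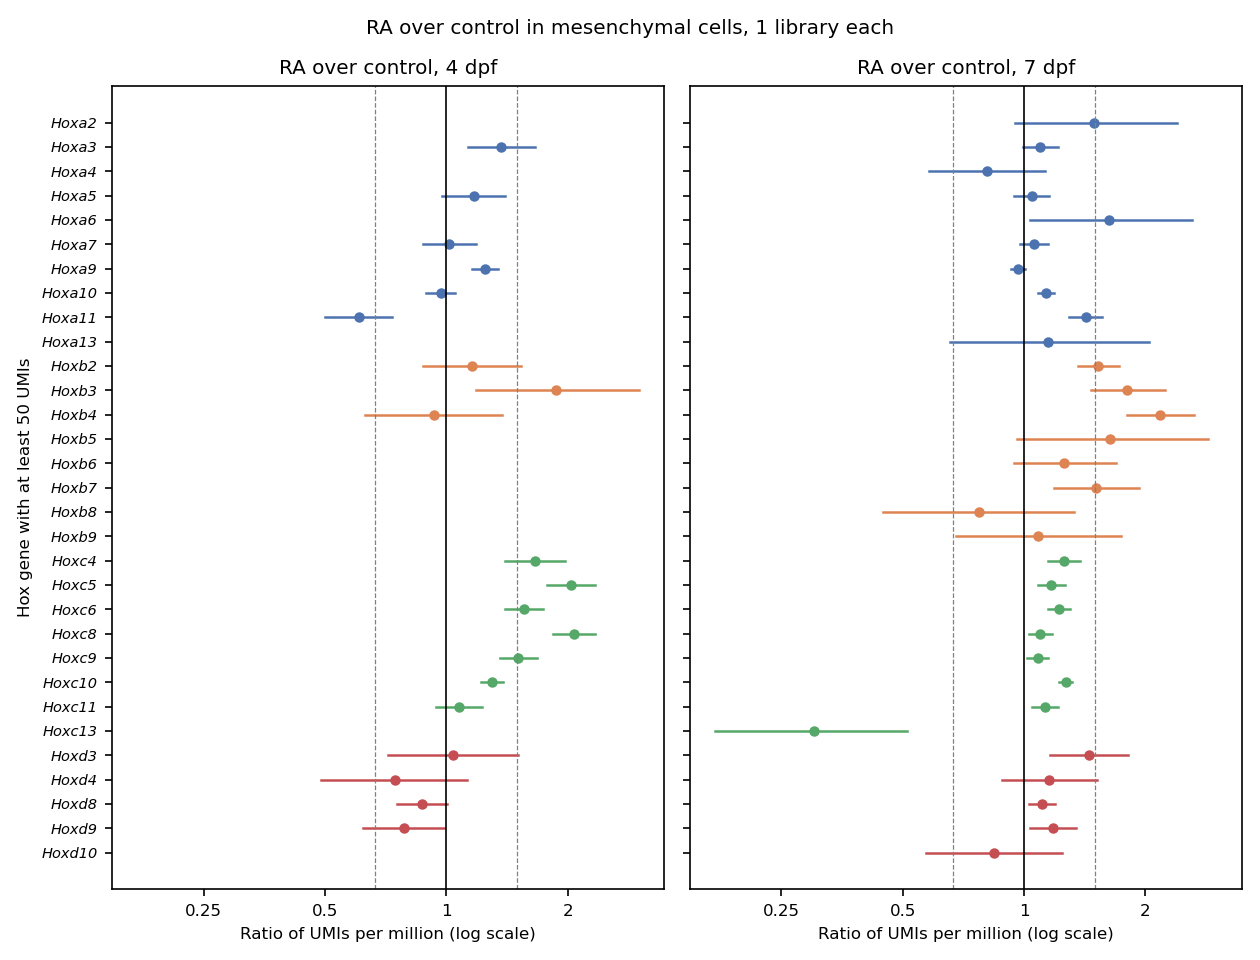
Ratio of RA to control CPM in mesenchymal cells (log axis) at 4 and 7 dpf for members that reached 50 UMIs in the 2 libraries combined, with bars for exact 95% intervals that cover counting error only and dashed lines at 1.5-fold either way. The *Hoxc* points lie right of 1 at 4 dpf, up to 2.07 for *Hoxc8*, and *Hoxa11* lies left of 1 at 4 dpf (0.606) and right of it at 7 dpf (1.42).

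**Figure D5:**
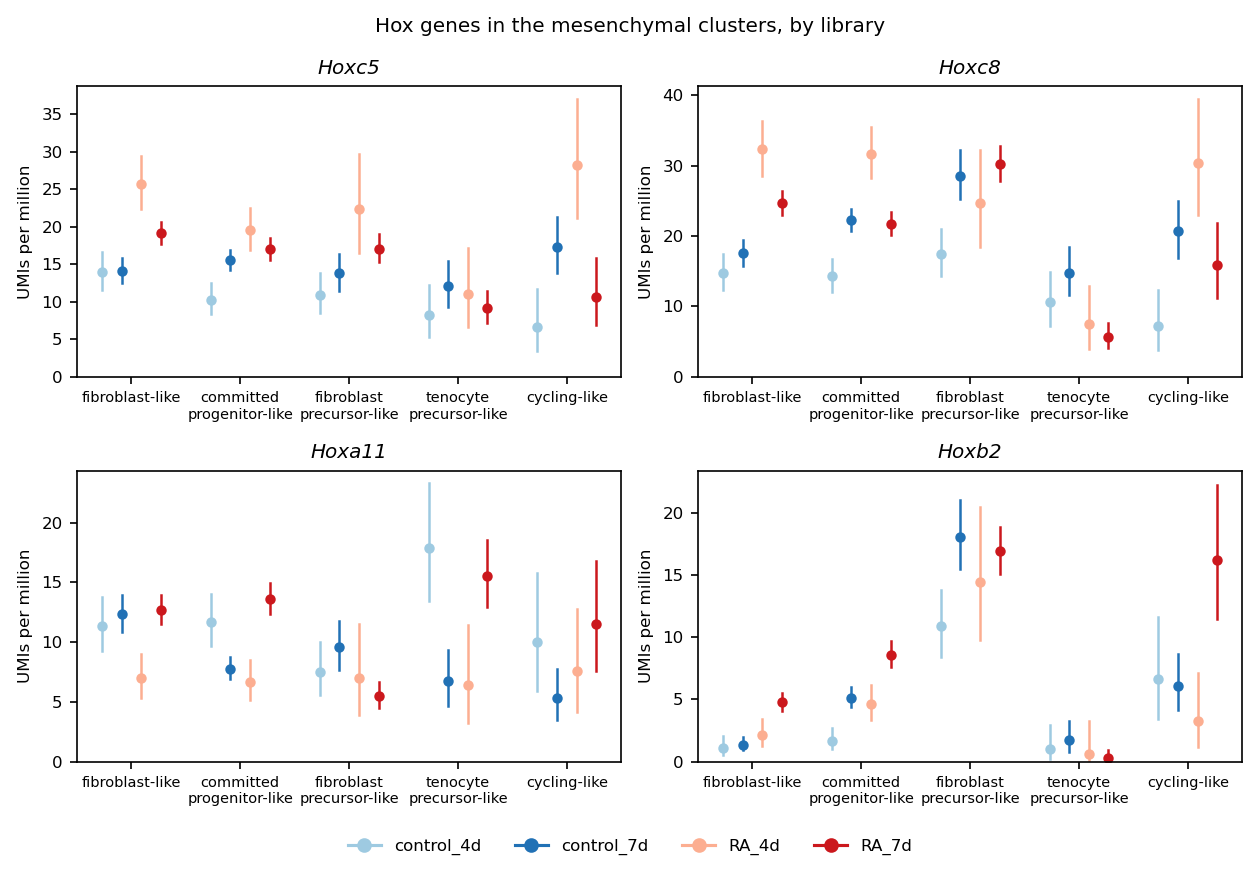
Level of *Hoxc5*, *Hoxc8*, *Hoxa11* and *Hoxb2* (CPM, y axis) in 5 mesenchymal clusters (x axis), with 1 point per library and bars for exact 95% Poisson intervals that cover counting error only. *Hoxc5* is higher in RA_4d than in control_4d in all 5 clusters, *Hoxa11* is lower, and the points of *Hoxb2* in the fibroblast precursor-like cluster lie above those of the fibroblast-like and tenocyte precursor-like clusters.

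Between 4 and 7 dpf few members passed the fold, and most of those were low in level. In control cells 5.78% of 16076 genes were at least 1.5-fold higher at 7 dpf and 4.35% at least 1.5-fold lower, and of 27 members 2 (7.41%) were higher and 0 lower. Under TMM scaling 729 genes were higher and 856 lower, against 929 and 700, and 1 member was higher and 1 lower. The 2 were *Hoxb6*, at 0.985 CPM at 7 dpf and 0.232 CPM at 4 dpf, and *Hoxb7*, at 1.32 and 0.498 CPM. Both were far higher in endothelial cells, and the part of released RNA in these mesenchymal levels was not tested. In RA cells 4.83% of 16424 genes were higher and 4.29% lower, and of 28 members 3 (10.7%) were higher and 0 lower. These were *Hoxb2*, with a ratio of 1.90 (95% interval 1.54 to 2.36), *Hoxa11*, with 1.76 (95% interval 1.49 to 2.08), and *Hoxb4*, with 1.95 (95% interval 1.45 to 2.70). Fibroblast precursor-like cells were 9.07% of mesenchymal cells in RA_4d and 17.7% in RA_7d. With equal weight of the clusters the log2 ratios, with 1 CPM added to each level, were 0.71 for *Hoxb2*, 0.62 for *Hoxa11* and 0.58 for *Hoxb4*. The ratios just given had no CPM added, so the scales differ. The comparisons share libraries, since every library enters both a comparison by condition and one by time. The *Hoxa11* level of RA_4d, 6.84 CPM, thus enters both its ratio to control at 4 dpf and its ratio between times in RA.

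A test over the 4 mesenchymal libraries, added after the data were seen, called no member for condition or for time. In edgeR's quasi-likelihood test of RA against control with time as a term, 0 of 33 members tested and 0.00% of 18434 genes were higher or lower at an adjusted p under 0.05, and the lowest adjusted p of a member was 0.97. At an unadjusted p under 0.05 there were 4 members (*Hoxb3*, *Hoxc4*, *Hoxc6* and *Hoxc10*, all higher in RA) and 663 genes (3.60%). The log2 difference of *Hoxc6* was 0.45 ± 0.14 (SE), adjusted p = 0.97. That of *Hoxc8* was 0.57 ± 0.24 (SE) and that of *Hoxa11* -0.10 ± 0.38 (SE). For 7 against 4 dpf with condition as a term 0 of 33 members were called, against 10 genes higher (0.0542%) and 1 lower (0.00542%), and 2 members and 1025 genes (5.56%) had an unadjusted p under 0.05. With 1 residual degree of freedom these tests do not show that the members were alike.

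The noncoding genes within the clusters followed their neighbours in part. *Hotairm1*, transcribed from the 3′ end of *Hoxa*, was at 37.8 CPM in endothelial cells (32.9 to 42.2 over the libraries) and 12.8 CPM in mesenchymal cells (12 to 14.2), a log2 difference of -1.45 ± 0.16 (SE), adjusted p = 4.1e-06. *Hoxd3os1* was at 24.0 CPM in endothelial, 6.88 in mesenchymal and 0.312 in muscle cells, and *Hoxa11os*, on the strand opposite *Hoxa11*, at 6.6 CPM in mesenchymal and 0.136 in endothelial cells. *Hotair*, from the *Hoxc* cluster and known for recruiting Polycomb repressors, was at 6.19 CPM in muscle (4.49 to 8.61) and 0.680 CPM in mesenchymal cells (0.578 to 0.881), a log2 difference of -3.07 ± 0.34 (SE), adjusted p = 6.7e-06. *Halr1* was at 7.69 CPM in the blood endothelial-like cluster 5 and 0.565 CPM in cluster 7. Of the 11 noncoding genes 9 were tested. Of these 2 were higher and 7 lower in mesenchymal than in endothelial cells (all genes, 29.6% and 35.2%). Against immune cells 7 were higher and 0 lower (all genes, 37.3% and 39.8%). Against muscle 3 were higher and 2 lower (all genes, 29.2% and 26.7%).

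Hox proteins bind DNA together with TALE homeodomain cofactors of the Pbx, Meis and Pknox families. All 9 cofactors on the list were tested. Against endothelial cells 5 were higher and 2 lower in mesenchymal cells, where 29.6% of all genes were higher and 35.2% lower. Against immune cells 5 were higher and 3 lower (all genes, 37.3% and 39.8%). Against muscle 3 were higher and 4 lower (all genes, 29.2% and 26.7%). *Meis2* was at 141 CPM in mesenchymal, 33.9 in endothelial and 9.56 in muscle cells. *Meis1* and *Pknox2* were highest in muscle, at 47.8 and 108 CPM, against 26.8 and 25.5 in mesenchymal and 1.09 and 0.953 in endothelial cells. In the lymphatic endothelial-like cluster *Meis2* was at 417 CPM, against 0.975 and 5.60 in the blood endothelial-like clusters.

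Levels of limb position genes are given beside the Hox pattern. *Pitx1*, which specifies the hindlimb, was at 21.9 CPM in mesenchymal cells, *Tbx4*, a hindlimb gene, at 4.39 CPM, and *Tbx5*, a forelimb gene, at 1.54 CPM. In the fibroblast precursor-like cluster 6 *Tbx5* was at 5.46 CPM and *Tbx4* at 1.98 CPM. Every other mesenchymal cluster had *Tbx4* above *Tbx5*. *Shox2* and *Tbx15*, genes of limb skeletal growth, were at 121 and 203 CPM. Of the 9 genes on this list 8 were tested. All 8 were higher in mesenchymal than in endothelial cells (all genes, 29.6%) and than in immune cells (all genes, 37.3%). Against muscle 6 were higher and 1 (*Tbx4*) lower (all genes, 29.2% and 26.7%). Among 12 chromatin regulators of the clusters 1 was higher and 6 lower in mesenchymal than in endothelial cells (all genes, 29.6% and 35.2%). Against immune cells 1 was higher and 8 lower (all genes, 37.3% and 39.8%). Against muscle 1 was higher and 10 lower (all genes, 29.2% and 26.7%). *Cbx7*, a Polycomb subunit, was at 37.7 CPM in endothelial and 2.08 CPM in mesenchymal cells, a log2 difference of -4.02 ± 0.29 (SE), adjusted p = 6.1e-08. The ParaHox genes and cluster neighbours (*Cdx1*, *Cdx2*, *Cdx4*, *Gsx1*, *Pdx1*, *Evx1* and *Evx2*) did not pass 0.236 CPM in any lineage, and none was tested.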

How the data were processed

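Callus cells were captured with the 10x Chromium 3′ kit (v3.1 chemistry) as 4 libraries. The deposited values are UMI counts per gene and cell barcode, raw and not normalized, which the authors made with Cell Ranger (version 7.0.1, per the submitters' processing notes and the methods) on mm10. Cells passed the study's stated limits (UMIs from 4000 to 50000, features from 2000 to 7000, mitochondrial share of no more than 8%).

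Libraries were integrated with canonical correlation anchors (30 dimensions) and clustered on 15 principal components at resolution 0.5 (Seurat 5.3.0), giving 21 clusters. A cluster was scored by the log2 level of each marker against its mean over the clusters, averaged over a fixed list. It took the name of the lineage with the highest score, from the lineage's own list or a list of its subtypes. Cells called doublets by Scrublet (scanpy 1.11.5) were kept, 592 of 25479. UMIs were summed per library and lineage. Lineages were compared by edgeR 4.0.16 (TMM scaling, filterByExpr, quasi-likelihood test, library as block, Benjamini-Hochberg over 17522 genes, threshold 0.05), which gave standard errors as the log2 difference over the square root of F. The script was tested on simulated data first. The 4 libraries are separate pools of mice, which differ in condition and time. The library term takes up differences between pools that all lineages share. The p-values thus rest on how far differences between lineages varied from pool to pool, not on the spread between pools itself.

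RA against control within a time and 7 against 4 dpf within a condition had 1 library per group and no test. Over the 4 mesenchymal libraries each was tested by edgeR with the other factor as a term, which was added after the data were seen. The comparisons within a time or condition are given as CPM, exact Poisson intervals and exact conditional intervals of the ratio (95%), which cover counting error only. Members past 1.5-fold on log2(CPM + 1) that reached 50 UMIs in the pair of libraries are named. Members with at least 10 CPM in a main lineage are given by library. The level of 0 counts was limited by 3 counts. Shares of cells come from cells thinned to 4000 UMIs. Alternatives were other scaling (RLE or none), DESeq2 1.42.0, no filter on low counts, no library term, classes from a gate on at least 3 of 6 markers, doublets left out, a looser cell filter (1000 UMIs, 500 features, 15% mitochondrial), each library left out, and for the ratios TMM scaling, equal weight of the mesenchymal clusters with at least 20 cells, a pseudocount of 10 CPM and a minimum of 10 UMIs. The members and gene lists were chosen with earlier results of these data known. 1 member is counted but not reported by name or drawn here. Promoter sequences are from RefSeq on GRCm38.p6.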

Additional observations from a re-analysis of the deposited data

Results flagged for a closer look

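*Hoxa11*, the zeugopod gene, was lower in RA than in control mesenchymal cells at 4 dpf and higher at 7 dpf, with the whole counting interval of the ratio on either side of 1. The log2 ratio, with 1 CPM added to each level, was -0.65 at 4 dpf and 0.46 at 7 dpf. Its level fell in order from RA_7d at 12 and control_4d at 11.3 to control_7d at 8.46 and RA_4d at 6.84 CPM. In muscle the ratio of RA to control was 0.202 at 4 dpf (95% interval 0.0229 to 0.825) and 0.284 at 7 dpf (0.0303 to 1.33), and in mural cells it was 0.645 (0.108 to 2.83) and 1.06 (0.652 to 1.75).

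*Hoxd9* was likewise lower in RA at 4 dpf and higher at 7 dpf, with log2 ratios in mesenchymal cells of -0.30 and 0.20. In endothelial cells its ratio was 0.881 (0.734 to 1.06) at 4 dpf and 1.64 (1.40 to 1.93) at 7 dpf. For both members the difference between the time points was not tested, since 1 library per condition and time leaves no residual degrees of freedom for it.

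Cluster 20, whose 144 cells were left unnamed and of which 47.2% were called doublets, entered no comparison and held a summed Hox level of 429 CPM.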

How the results depend on the processing

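For the 23 members given by library, no difference between lineages that passed changed direction under any alternative, and against muscle *Hoxa9*, *Hoxb5*, *Hoxb8* and *Hoxc8*, which had not passed, changed sign under some. Over these members 32 values lost their call under an alternative and 14 gained one. Against immune cells the count of members lower in mesenchymal cells went from 2 to 1 under RLE scaling, no scaling, DESeq2, no library term, the marker gate, doublets left out, the looser filter with the gate, and without each library in turn (1 to 1), because *Hoxb3* no longer passed. Against muscle the count of lower members was 3 under the marker gate and 3 under the looser filter with the gate, which kept 178 and 221 muscle cells, and 7 to 10 with 1 library left out, the lowest without RA_7d. Of all genes 15.5%, 14.2% and 19.0% were lower under the gate, the looser filter with the gate and without RA_7d, against 26.7%. The gate moved the median log2 difference of all genes against muscle from 0.05 to 0.30, and no scaling moved that against immune cells from -0.03 to 0.17. With 1 library left out, higher counts were 24 to 26 against immune, 10 to 11 against endothelial and 9 to 11 against muscle cells, and 19 to 20 members were lower than in endothelial cells. The share of Hox UMIs from *Hoxc* in muscle was 67.7% under the gate, against 62.9%. At a pseudocount of 10 CPM the members at least 1.5-fold higher or lower in RA numbered 2 and 0 at 4 dpf and 0 higher at 7 dpf, and those higher at 7 than at 4 dpf 0 in control and 0 in RA. Of all genes 122 and 138 were higher and lower in RA at 4 dpf, and 311 were higher at 7 dpf. Between the times 281 genes were higher at 7 dpf in control and 301 in RA. For RA at 7 dpf 2 members were higher under TMM scaling, 2 under the gate and 2 with doublets left out, against 882, 817 and 774 of all genes. For 7 against 4 dpf in control 1 was higher and 1 lower under TMM scaling, against 729 and 856 of all genes. Under the gate 1 was lower, against 753 genes. Without thinning, 98.4% of mesenchymal, 98.3% of muscle, 99% of endothelial and 21.8% of immune cells held a Hox UMI. With 1 library left out the shares of Hox UMIs ran from 49.1% to 50.6% (*Hoxc*, mesenchymal), 61.2% to 64.0% (*Hoxc*, muscle), 57.6% to 59.5% (*Hoxb*, endothelial) and 60.2% to 65.5% (*Hoxb*, immune). The other counts stayed within 1.5 times, and the other shares within the spread of the libraries, in 115 values under the alternatives and 51 with 1 library left out. The tests of condition and of time over the 4 mesenchymal libraries called 0 members higher and 0 lower, also without the term for the other factor and without each library in turn (0 to 0). Among the tested lineages depth limits muscle most, where the 4 libraries sum to 16003159 UMIs and 3 counts are 0.187 CPM. The median log2 ratio of the members at 7 against 4 dpf in control cells was 0.08, and -0.0055 under TMM scaling.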

Other observations

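RA and control libraries also differed for some members outside the mesenchyme, which were chosen here after their values were seen and carry intervals for counting error only. The summed Hox level was itself higher in RA at 7 dpf in endothelial cells (540 and 423 CPM) and muscle (532 and 413). At 4 dpf it was higher in RA in muscle (572 and 447 CPM) and immune cells (23.8 and 17.4). In endothelial cells at 7 dpf *Hoxd10* was at 9.15 CPM in RA_7d and 4.51 CPM in control_7d, a ratio of 2.03 (95% interval 1.51 to 2.74). *Hoxb3* had a ratio of 1.69 (95% interval 1.51 to 1.91), *Hoxd3* of 1.68 (95% interval 1.31 to 2.15), *Hoxd9* of 1.64 (95% interval 1.40 to 1.93) and *Hoxb5* of 1.59 (95% interval 1.32 to 1.91). The lymphatic endothelial-like cluster, which is high in *Hoxd9* and *Hoxd10*, held 147 of 1254 endothelial cells in RA_7d and 96 of 925 in control_7d, and its part in these ratios was not tested.

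In muscle *Hoxa5* was higher in RA at both times, with ratios of 1.78 (95% interval 1.29 to 2.45) at 4 dpf and 2.10 (95% interval 1.49 to 2.97) at 7 dpf. *Hoxc10* had a ratio of 1.63 (95% interval 1.41 to 1.89) at 7 dpf. In immune cells at 4 dpf *Hoxa9* was at 2.54 CPM in RA_4d and 0.844 CPM in control_4d, a ratio of 3.00 (95% interval 2.12 to 4.32), and *Hoxa7* had a ratio of 2.29 (95% interval 1.54 to 3.43). The neutrophil-like cluster, where *Hoxa9* was highest among the immune clusters, held 244 of 2585 immune cells in RA_4d and 72 of 3455 in control_4d, and its part in the ratio was not tested.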
